A study of Mus musculus with 104 samples.

Results

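The centromere-proximal ends of the mouse autosomes were examined as targets of DNA double-strand break joining in embryonic stem cells (ESC) and in neural progenitor cells (NPC) differentiated from them. The ends were taken as the first 5 Mb of assembled sequence of build mm9, from the end of the 3 Mb assembly gap up to position 8000000 on chromosomes 1 to 19, and were cut into 380 bins of 250 kb out of 9672 autosomal bins. Junctions on the chromosome that carried the bait break were left out, so each pool of libraries was read over 18 autosomes and 90 Mb of proximal sequence. These bins held 15912 of 440324 autosomal junctions (3.61%), and the other 9292 bins held 424412.

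The assay was linear amplification-mediated high-throughput genome-wide translocation sequencing, or HTGTS. A break is cut at a known bait site, and each sequenced junction reports another, unknown prey break joined to it. NPC treated with the DNA polymerase inhibitor aphidicolin (APH), NPC given DMSO, the solvent, ESC treated with APH and ESC given DMSO each contributed 6 pools. The 6 pools were 2 cell lines by 3 baits, on chromosomes 7, 12 and 15, and the labels give 4 experiments per pool, or 8 for the pair of ESC pools of line 1 and bait 7, 104 in 24 pools. The experiment letters in the tables differ from the labels in 2 pools of ESC with DMSO and bait 7 (7 letters for 8 experiments in line 1 and 3 for 4 in line 2), and each table was used as a whole pool. All cells, controls included, were Xrcc4-/- p53-/- on the C57BL6/129SVE background, so all lacked the end-joining factor Xrcc4 and the tumour suppressor p53, and no group with intact end joining was compared. The series asked whether such cells form recurrent break clusters under replication stress.

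Mouse autosomes are telocentric: each begins with a telomere, followed closely by the centromere with its arrays of satellite repeats, and the long arm makes up the rest. The build leaves the first 3 Mb as a gap, and 0 junctions lay within it. The window is thus the assembled sequence nearest to the centromere. In nuclei, centromeres of different mouse chromosomes gather in chromocentres, and joining of a break to a prey end depends both on how often the prey breaks and on how often both ends meet.

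The numbers of autosomal junctions off the bait chromosome were 10434 to 75247 in NPC pools and 3544 to 10869 in ESC pools, so single-pool values of ESC carry more counting error. The proximal share of these junctions had 95% exact binomial (Clopper-Pearson) intervals of 3.44 to 3.71% in the deepest NPC pool and 2.94 to 4.19% in the shallowest ESC pool. These intervals cover counting error at most and take each junction as independent. Amplified reads need not be independent molecules, so the intervals may be too narrow. The labels do not say that the lines or experiments came from separate animals, so p-values measure the spread between pools, which may be technical.

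Junctions gathered at some proximal positions, and 7 prey sequences are given as examples. They cover positions reported with all baits or with only one, and runs of a single base. They also cover a position in each of 2 dense stretches that were not narrow, on chromosomes 11 and 16. Each sequence is the prey part of a deposited read at the position used most often on one strand of its region, written 5′ to 3′ along the plus strand of mm9. Such a position can hold few of the junctions of its region. It held 5 of 65 on chromosome 3, 5 of 496 on chromosome 11 and 4 of 345 on chromosome 16. At the run of C, 1 of 20 reads had the first 30 bases of the printed read. Capitals mark the 10 bases next to the junction, or, in the run of C, the run itself.
Position reported with all baits, chr3:5860722-5860771, junction on the minus strand: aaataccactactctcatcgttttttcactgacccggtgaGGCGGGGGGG
Single-base run, chr17:3379813-3379861, minus strand: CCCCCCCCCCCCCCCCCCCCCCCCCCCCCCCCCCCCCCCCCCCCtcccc
Site of chromosome 13, chr13:3372315-3372364, plus strand: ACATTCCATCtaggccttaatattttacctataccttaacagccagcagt
Site of bait 7, left side, chr4:5697207-5697256, minus strand: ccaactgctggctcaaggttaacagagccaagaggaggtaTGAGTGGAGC
Site of bait 7, right side, chr4:5697268-5697317, plus strand: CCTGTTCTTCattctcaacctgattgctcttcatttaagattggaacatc
First bin of chromosome 11, chr11:3080683-3080732, plus strand: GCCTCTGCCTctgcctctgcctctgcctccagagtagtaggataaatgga
Chromosome 16 cluster, chr16:6512660-6512709, plus strand: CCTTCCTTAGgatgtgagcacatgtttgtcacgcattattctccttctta
No mm9 genome or annotation was used here, so exons, introns, UTRs and repeats are not assigned, and whether a sequence also occurs elsewhere in the genome was not tested. A position is the one the authors' alignment gave.

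The density of the proximal ends was close to that of the rest of the chromosomes and in most pools slightly lower. It was expressed as a ratio, proximal junctions per Mb over the mean density of the same autosomes outside the window. In NPC with APH the ratio was 1.17, 0.903 and 0.915 for baits 12, 15 and 7 in line 1 and 1.15, 0.861 and 0.899 in line 2. In NPC with DMSO it was 0.997, 0.761 and 0.811 in line 1 and 0.900, 0.808 and 0.757 in line 2. Every DMSO pool of NPC lay below its APH partner, and the pools of bait 12 stood highest in each set.

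In ESC with APH the ratio was 1.09, 0.890 and 0.895 for baits 12, 15 and 7 in line 1 and 0.969, 0.801 and 0.839 in line 2. In ESC with DMSO it was 1.05, 0.922 and 0.867 in line 1 and 0.903, 0.898 and 0.750 in line 2. The APH and DMSO pools overlapped in ESC, as they did in NPC, and in ESC the DMSO pools of bait 15 lay above their APH partners. Of the 24 pools, 4 had a ratio above 1, and all 4 carried bait 12.

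**Figure D1:**
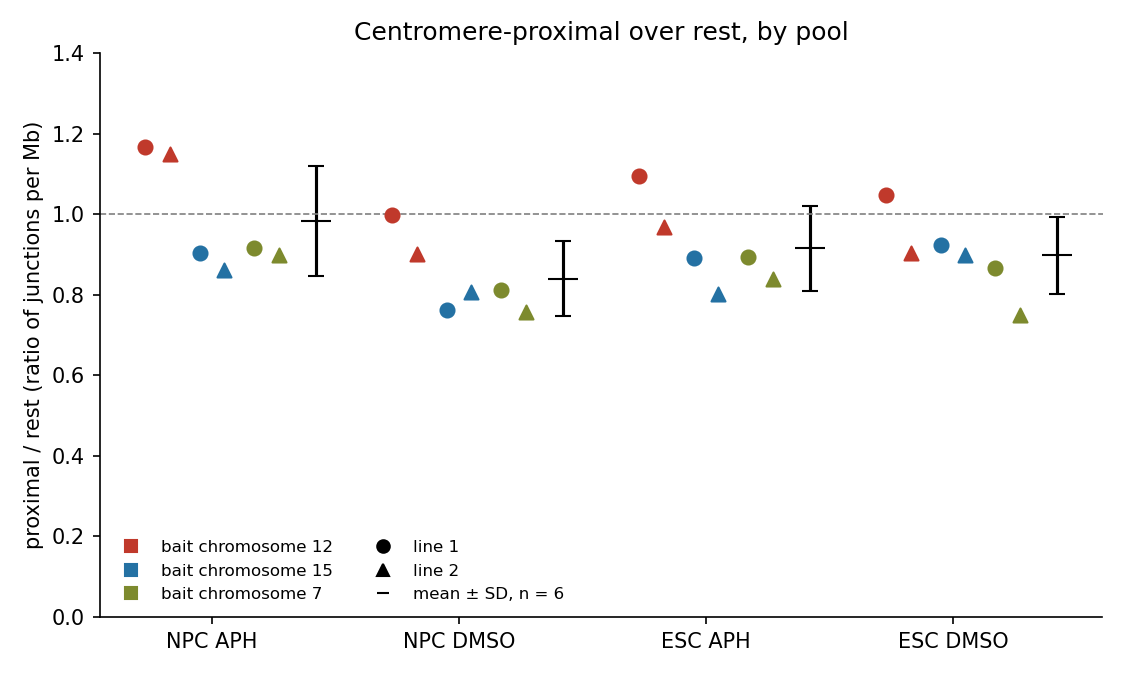
Ratio of proximal junctions per Mb to the rest of the autosomes in each of the 24 pools (vertical axis, no unit), grouped by cell type and treatment, with baits by colour, lines by shape, and the mean and SD of 6 pools as black bars. The dashed line marks a ratio of 1, which 4 pools, all with bait 12, exceeded.

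The mean ratio was 0.982 ± 0.137 in NPC with APH, 0.839 ± 0.0932 in NPC with DMSO, 0.915 ± 0.105 in ESC with APH and 0.898 ± 0.0957 in ESC with DMSO (SD, n = 6 each). Proximal density was below the rest in 6 of 6 NPC DMSO pools, with a mean log2 ratio of -0.26 (two-sided exact sign-flip permutation test, p = 0.03125, the smallest that 6 pools allow, adjusted over the 4 conditions p = 0.125). It was below in 4 of 6 NPC APH pools at -0.037 (exact permutation p = 0.656, adjusted p = 0.656), in 5 of 6 ESC APH pools at -0.14 (exact permutation p = 0.09375, adjusted p = 0.125) and in 5 of 6 ESC DMSO pools at -0.16 (exact permutation p = 0.0625, adjusted p = 0.125). None of the 4 departures from the rest passed the threshold after adjustment.

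The proximal ratio was higher with APH than with DMSO in 6 of 6 pairs of NPC pools, but the difference did not pass the threshold once the 5 comparisons of treatment and cell type were adjusted for. The log2 difference by pair was 0.23, 0.25 and 0.17 for baits 12, 15 and 7 in line 1 and 0.35, 0.092 and 0.25 in line 2. The mean was 0.22 ± 0.09 (SD, n = 6 pairs), a ratio 1.17-fold that of DMSO (exact sign-flip permutation p = 0.03125, adjusted p = 0.0521). In ESC the mean difference was 0.026 ± 0.12, with APH higher in 4 of 6 pairs (exact permutation p = 0.656, adjusted p = 0.656). The difference between these effects, NPC minus ESC, was 0.20 ± 0.08 and positive in 6 of 6 pairs (exact permutation p = 0.03125, adjusted p = 0.0521).

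The APH comparison in NPC rested in large part on chromosome 16, which held 17.03 ± 3.04% of the proximal junctions in NPC with APH, 9.40 ± 3.95% in NPC with DMSO, 6.26 ± 1.93% in ESC with APH and 6.75 ± 3.19% in ESC with DMSO. With that chromosome left out, APH over DMSO in NPC was 0.095, still positive in 6 of 6 pairs (exact permutation p = 0.03125, adjusted p = 0.156), and the difference between the effects was 0.064, positive in 4 of 6. The comparison of NPC with ESC turned its sign. Under APH, NPC exceeded ESC by 0.099 ± 0.080 in 6 of 6 pairs (exact permutation p = 0.03125, adjusted p = 0.0521), and without chromosome 16 the difference was -0.080 with 1 of 6 pairs positive. Under DMSO, NPC minus ESC was -0.098 ± 0.11, with 1 of 6 pairs positive (exact permutation p = 0.09375, adjusted p = 0.117).

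Line 2 had slightly lower ratios than line 1. Line 2 minus line 1 was -0.15 ± 0.07 in ESC, lower in 6 of 6 pairs of the same bait and treatment (exact permutation p = 0.03125, adjusted over 2 tests p = 0.0625), and -0.046 ± 0.080 in NPC, lower in 5 of 6 pairs (exact permutation p = 0.1875, adjusted p = 0.1875). Without chromosome 16 line 2 was lower in 6 of 6 pairs in both cell types, by log2 differences of -0.13 in ESC and -0.082 in NPC, which passed the threshold (exact permutation adjusted p = 0.03125 each). The APH and DMSO pools of one line and bait are not independent, so these calls rest on counting the treatments as separate pairs. In ESC the exact permutation p was 0.03125 with chromosome 16 as well. Its adjusted p fell because line 2 was now lower in 6 of 6 NPC pairs.

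Proximal ratios were higher with bait 12 than with the other baits. The bait break lay at chr12:13001001-13002000 for bait 12, chr15:86848001-86849000 for bait 15 and chr7:80451001-80452000 for bait 7, taken as the busiest kb of each bait chromosome, so bait 12 was itself near the centromere-proximal end of its chromosome and the others were far from theirs. Whether the position of the bait plays a part was not tested. With only bait 12 near that end, position cannot be told apart from other properties of that bait or its libraries. On the 16 autosomes that carry no bait, the ratio was 1.04 ± 0.126 for bait 12, 0.850 ± 0.0699 for bait 15 and 0.829 ± 0.0650 for bait 7 (SD, n = 8 pools each). Bait 12 was above bait 7 in 8 of 8 matched pairs, by 0.32 ± 0.12 on the log2 scale or 1.24-fold (exact sign-flip permutation p = 0.0078125, adjusted p = 0.0234), and above bait 15 in 7 of 8, by 0.28 ± 0.17 or 1.21-fold (exact permutation p = 0.015625, adjusted p = 0.0234). Bait 15 minus bait 7 was 0.037 ± 0.16, positive in 4 of 8 pairs (exact permutation p = 0.539). The APH and DMSO pools of one line and cell type are not independent. With these averaged first, which was added after seeing the data, the differences were 0.32 ± 0.11 between baits 12 and 7 and 0.28 ± 0.14 between baits 12 and 15, positive in 4 of 4 each (exact permutation p = 0.125, the smallest that 4 values allow, adjusted p = 0.1875), so the call rests on counting the 2 treatments as separate pairs.

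The excess with bait 12 was spread over chromosomes. Summed over pools, its ratio was above that of bait 7 on 14 of the 16 autosomes, above that of bait 15 on 13, and above both on 12. It was seen in both cell types, where bait 12 averaged 1.08 ± 0.137 in NPC and 0.986 ± 0.110 in ESC, bait 15 averaged 0.830 ± 0.0640 in NPC and 0.871 ± 0.0786 in ESC, and bait 7 averaged 0.842 ± 0.0763 in NPC and 0.815 ± 0.0595 in ESC (n = 4 pools, SD). Leaving out either line gave differences from bait 7 of 0.26 and 0.38 and from bait 15 of 0.22 and 0.34, with 4 pairs left, which cannot give an exact p below 0.125.

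The excess was not limited to the window. From 8 to 13 Mb the density relative to the rest was 1.00 ± 0.0767 for bait 12, 0.772 ± 0.0448 for bait 15 and 0.768 ± 0.0712 for bait 7. From 13 to 18 Mb it was 0.839, 0.674 and 0.775 for baits 12, 15 and 7. Bait 12 had the highest mean of the 3 baits in each 5 Mb window from 3 to 53 Mb except that from 43 to 48 Mb. There it had 0.968 and bait 7 had 0.973. From 38 to 43 Mb it had 1.16 against 0.923 for bait 15 and 0.934 for bait 7. In the last 5 Mb of the same autosomes bait 12 was the lowest of the 3, at 1.22 ± 0.0779 for bait 12, 1.36 ± 0.167 for bait 15 and 1.34 ± 0.139 for bait 7. The windows other than the first were not tested between baits.

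**Figure D2:**
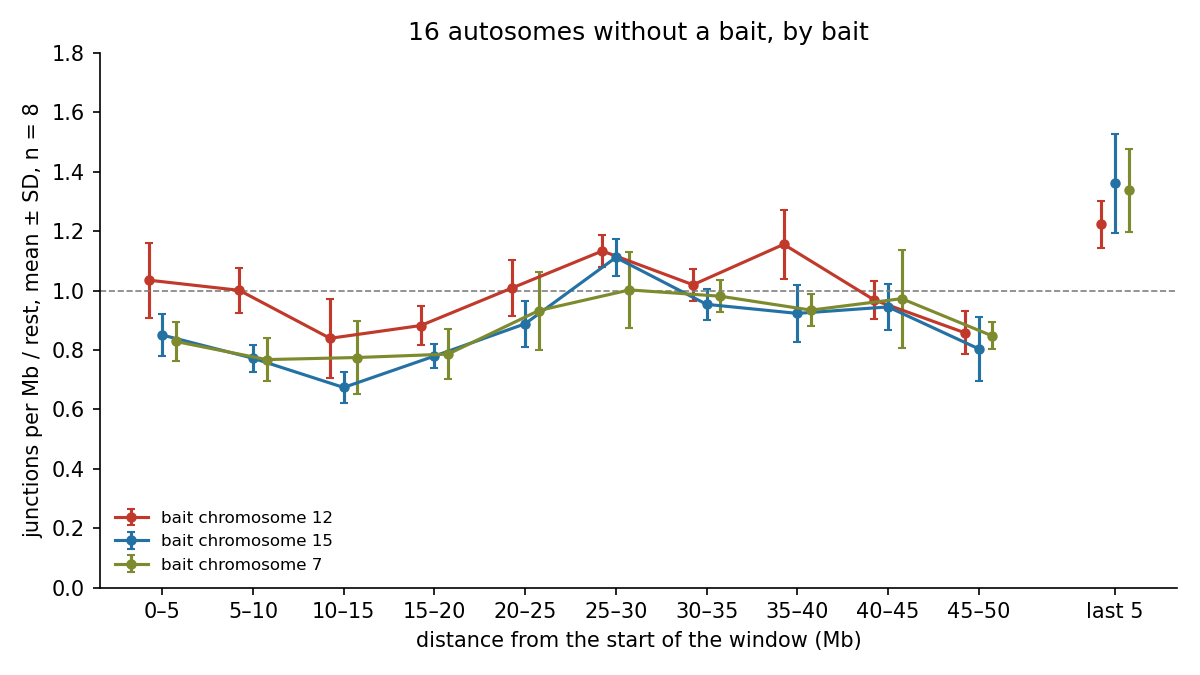
Junctions per Mb relative to the rest (vertical axis, mean and SD of 8 pools) in successive 5 Mb windows of the 16 autosomes without a bait, by distance from the start of the window (horizontal axis, Mb), 1 line per bait. In the first window bait 12 averaged 1.04, bait 15 0.850 and bait 7 0.829.

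Within the window the first Mb had the highest mean density in all 4 conditions, by a small margin in NPC. In NPC with DMSO the Mb from 5 to 6 followed at 0.921. From 3 to 4 Mb the density relative to the rest was 1.20 ± 0.299 in NPC with APH, 0.964 ± 0.195 in NPC with DMSO, 1.31 ± 0.278 in ESC with APH and 1.25 ± 0.158 in ESC with DMSO (SD, n = 6 each). From 4 to 5 Mb it was 0.788, 0.797, 0.770 and 0.946 in the same conditions. From 6 to 7 Mb NPC with APH reached 1.19 ± 0.178, against 0.821 ± 0.122 in NPC with DMSO, 0.783 ± 0.120 in ESC with APH and 0.733 ± 0.204 in ESC with DMSO.

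Comparing the first with the second 2.5 Mb, the log2 ratio was -0.028 ± 0.11 in NPC with APH (exact permutation p = 0.531, adjusted p = 0.531), 0.11 ± 0.19 in NPC with DMSO (exact permutation p = 0.28125, adjusted p = 0.375), 0.33 ± 0.32 in ESC with APH (exact permutation p = 0.09375, adjusted p = 0.1875) and 0.39 ± 0.21 in ESC with DMSO. The last was positive in 6 of 6 pools (exact permutation p = 0.03125, adjusted p = 0.125). None of the 4 comparisons passed the threshold after adjustment.

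Summed over autosomes and pools, the first 250 kb held 1416 junctions and the second 1105, against 561 in the last. Chromosome 11 supplied 496 of the first bin, or 35.0%, and without it the bin held 920, close to the 937 that the second bin held without chromosome 17. The bins that end at 4000000 and 4250000 held 645 and 628. A broader rise followed to 906 in the bin from 6500001, of which chromosome 16 supplied 345, or 38.1%, and the other autosomes 561.

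**Figure D3:**
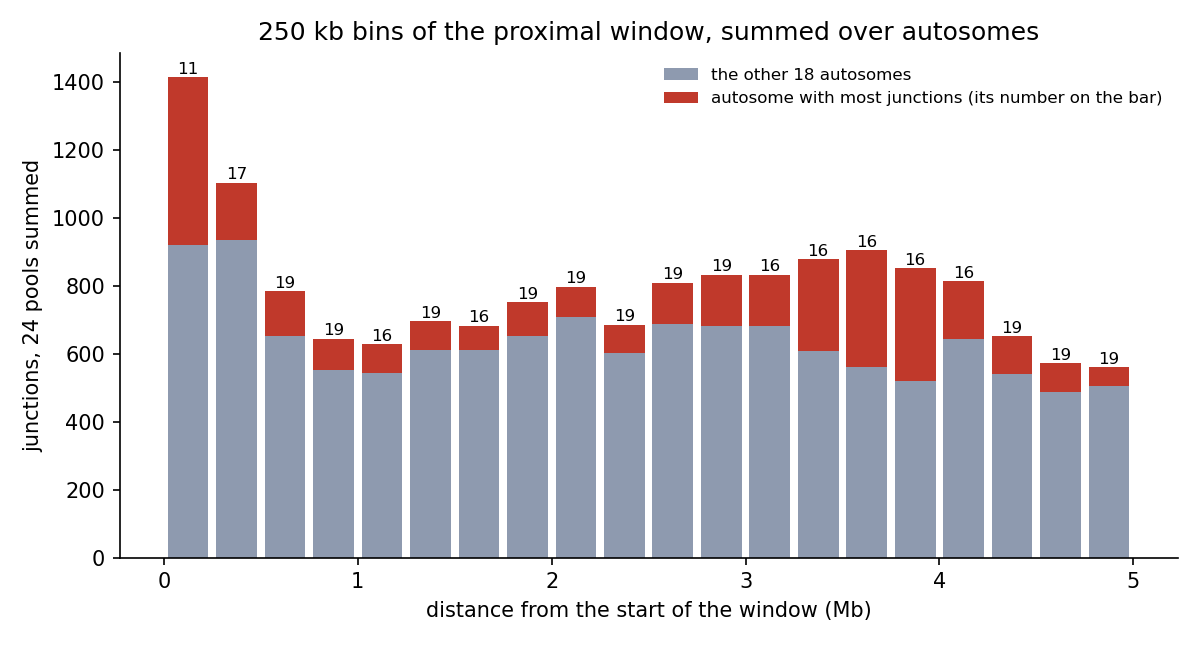
Junctions in each 250 kb bin of the proximal window, summed over the 24 pools (vertical axis), by distance from the start of the window (horizontal axis, Mb), with the autosome that supplied most junctions in red, numbered on the bar, and the others in grey. The first bin is the highest at 1416, with 496 from chromosome 11, and chromosome 16 supplies most in the 5 bins that span 3 to 4.25 Mb from the start.

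The mean density of the proximal ends was below that of the opposite, telomere-proximal ends and slightly above that of the next 5 Mb, with no comparison past the threshold after adjustment. The log2 ratio of the proximal to the last 5 Mb was -0.27 ± 0.23 in NPC with APH (4 of 6 pools lower, exact permutation p = 0.125, adjusted over 8 tests p = 0.125), -0.64 ± 0.20 in NPC with DMSO, -0.61 ± 0.26 in ESC with APH and -0.64 ± 0.29 in ESC with DMSO. These last 3 conditions were lower in 6 of 6 pools each (exact permutation p = 0.03125 each, adjusted p = 0.0625), which is the smallest adjusted p reached. Against the next 5 Mb, up to position 13000000, it was 0.14 ± 0.08 in NPC with APH, higher in 6 of 6 pools (exact permutation p = 0.03125, adjusted p = 0.0625), 0.087 in NPC with DMSO, 0.18 in ESC with APH and 0.12 in ESC with DMSO, higher in 5 of 6 pools each.

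Single autosomes varied widely. Over the pools, 11 of 19 autosomes had fewer junctions per Mb in the proximal window than in the rest, 3 had more and 5 did not pass the threshold (sign-flip permutation tests over 24 pools, or 16 on the bait chromosomes 7, 12 and 15, adjusted over 19 autosomes; pools of one line and bait are not independent). The lower ones were chromosomes 1, 2, 3, 4, 5, 6, 8, 9, 13, 14 and 15, with a ratio of summed densities of 0.283 to 0.941 and a median of 0.741, against 0.792 over all 19. The higher ones were chromosomes 11, 16 and 19. Chromosomes 7, 10, 12, 17 and 18 had ratios of 0.719 to 1.17, and 4 of these 5 passed under another setting. Chromosome 12 was higher than its rest with each position and strand counted once (0.23, permutation adjusted p = 0.0420), without narrow bins (0.24, permutation adjusted p = 0.0189) and with a 2.5 Mb window (0.47, permutation adjusted p = 0.00538). Chromosome 10 was lower with a 2.5 Mb window (-0.36, permutation adjusted p = 0.00538) and chromosome 7 with a 10 Mb window (-0.80, permutation adjusted p = 0.00029). Chromosome 17 was lower without narrow bins (-0.22, permutation adjusted p = 0.0356) but higher with a 2.5 Mb window (0.41, permutation adjusted p = 0.00712). Chromosomes 1, 5, 8, 9, 14 and 19 kept the direction and the call under all 22 alternatives run, and the other 8 lost the call under at least 1, among them leaving out a line or a bait.

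Chromosome 14 was the sparsest. Its proximal window held 275 junctions, 55.0 per Mb over all pools, against 194 per Mb in its rest, a ratio of 0.283, and ranked last of its 24 windows of 5 Mb. The mean log2 ratio was -1.73 ± 0.85, below 0 in 23 of 24 pools (permutation adjusted p = 6.3e-05, from the smallest p that 100000 resamples can give). By ratio, chromosome 8 came next with 123 per Mb against 277 per Mb, a ratio of 0.443, below in 23 of 24 pools (permutation adjusted p = 6.3e-05). Chromosome 9 followed with 127 per Mb against 209 per Mb, a ratio of 0.608, below in 21 of 24 pools (permutation adjusted p = 0.000152). By density alone their windows were not the next sparsest, since that of chromosome 1 held 108 per Mb and that of chromosome 6 held 114. The rest of chromosome 8 was the densest of all autosomes.

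Chromosome 19 was dense in every pool. Its proximal window held 339 junctions per Mb against 226 in its rest, a ratio of 1.5, and was the second densest of its 11 windows. Its log2 ratio was 0.70 ± 0.28 and positive in 24 of 24 pools (permutation adjusted p = 6.3e-05). Chromosome 16 held 430 per Mb against 203, a ratio of 2.11, and its proximal window was the densest of 19. This excess came mostly from NPC. The ratio of summed densities was 2.82 in NPC with APH, 1.58 in NPC with DMSO, 1.04 in ESC with APH and 1.08 in ESC with DMSO. Over all pools the log2 ratio of chromosome 16 averaged 0.48 ± 0.87, positive in 19 of 24 pools (permutation adjusted p = 0.0266). Chromosome 11 held 260 per Mb against 241, a ratio of 1.08, with a mean log2 ratio of 0.19 ± 0.39, positive in 16 of 24 pools (permutation adjusted p = 0.0345). This call was not stable: with prey reads of a single base left out it no longer passed, at 0.19 (permutation adjusted p = 0.0602), and with a window of 10 Mb chromosome 11 was lower than its rest, at -0.32 (permutation adjusted p = 0.000703).

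**Figure D4:**
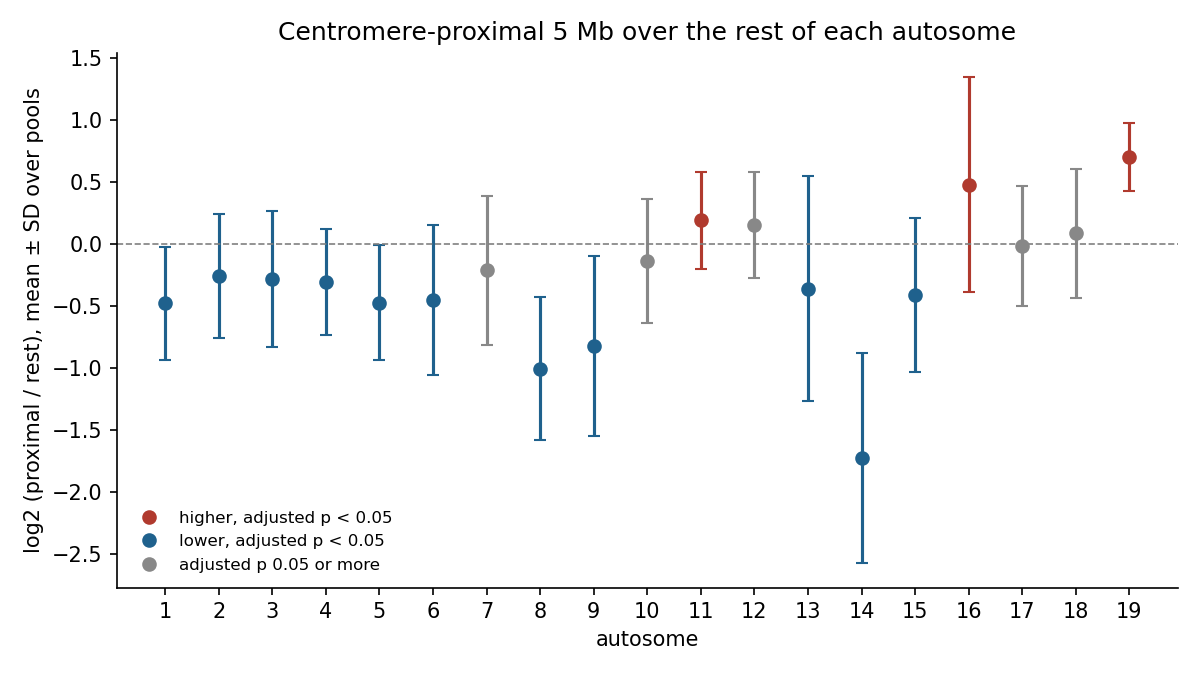
Log2 ratio of proximal to remaining density for each autosome (horizontal axis), as the mean and SD over 24 pools, or 16 on chromosomes 7, 12 and 15. Chromosome 14 lies lowest at -1.73 and chromosome 19 highest at 0.70.

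The autosomes that set NPC apart from ESC were compared after the pooled values had been seen, over 12 pairs of pools, or 8 on a bait chromosome. Pairs that share a line and bait are not independent, and the p-values given here count them as separate. Chromosomes 2 and 16 were higher in NPC and chromosomes 7, 14 and 18 lower, 5 of 19 past the threshold. On chromosome 16 the log2 difference was 1.00 ± 0.82, with NPC higher in 10 of 12 pairs (permutation adjusted p = 0.0155), and on chromosome 2 it was 0.49 ± 0.44, higher in 10 of 12 (permutation adjusted p = 0.0186). On chromosome 14 it was -1.05 ± 0.93, with NPC higher in 1 of 12 pairs (permutation adjusted p = 0.0155), on chromosome 7 -0.90 ± 0.40, higher in 0 of 8 (exact permutation adjusted p = 0.0297), and on chromosome 18 -0.54 ± 0.42, higher in 2 of 12 (permutation adjusted p = 0.0155). These differences average both treatments, which were not tested apart. On chromosome 14 the ratio of summed densities under APH was 0.255 in NPC and 0.590 in ESC. Under DMSO it was 0.234 in NPC and 0.291 in ESC. On chromosome 16 the gap was also wider under APH, at 2.82 and 1.04, than under DMSO, at 1.58 and 1.08. Between APH and DMSO 1 autosome passed, chromosome 3 at 0.45 ± 0.50 with APH higher in 10 of 12 pairs (permutation adjusted p = 0.0371), but not once repeated use of a position and strand was counted as 1 (permutation adjusted p = 0.26).

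Junctions were spread over all bins, and a few bins were much denser. No proximal bin was empty, while 54 of 9292 bins elsewhere were. The median was 32 junctions per bin in the proximal window and 37 elsewhere, and 100 or more junctions fell in 15 proximal bins (3.95%) and in 418 bins elsewhere (4.498%). The 10 fullest bins held 15.2% of the proximal junctions and the 38 fullest 31.1%. Junctions were concentrated within 1 kb, with at least 20% of the bin, in 9 of 81 proximal bins that held 50 or more junctions (11.1%) and in 179 of 2855 elsewhere (6.27%).

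The 10 bins with the highest mean junctions per 10000 were on chromosomes 11, 16, 17, 18 and 19. The first bin of chromosome 11, which ends at position 3250000, led with 496 junctions. It had junctions in all 24 pools, at 10.6 ± 4.54 per 10000 in NPC with APH, 13.0 ± 4.22 in NPC with DMSO, 9.76 ± 2.80 in ESC with APH and 11.6 ± 4.19 in ESC with DMSO (SD, n = 6 each), and its busiest kb held 3.63% of them, so it was broad. On chromosome 19 the bins from 3250001, 3500001 and 5750001 held 99, 133 and 151 junctions. On chromosome 17 the first bin held 150 and the second 168, and on chromosome 18 the first bin held 191, of which 48.7% lay in 1 kb.

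Chromosome 16 held the other 3 of the 10, which adjoin each other from 6250001 to 7000000. With the bin on either side they form a stretch, chr16:6000001-7250000, that was outlined after the values were seen and is described without a test. By pool it held 28.0, 50.4 and 37.3 junctions per 10000 for baits 12, 15 and 7 in NPC with APH of line 1 and 63.4, 40.7 and 40.9 in line 2. In NPC with DMSO it held 11.8, 6.60 and 6.92 in line 1 and 6.71, 34.6 and 12.9 in line 2. The APH pools lay above the DMSO pools except for line 2 with bait 15, whose DMSO pool exceeded the lowest APH pool.

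In ESC the stretch held 3.19 to 12.1 per 10000 with APH and 0 to 15.5 with DMSO. The conditions averaged 43.5 ± 12.1 in NPC with APH, 13.2 ± 10.8 in NPC with DMSO, 8.43 ± 3.36 in ESC with APH and 5.79 ± 5.25 in ESC with DMSO, from 957, 256, 34 and 21 junctions. It made up 11.2, 4.0, 2.32 and 1.59% of the proximal junctions in that order. Rbfox1, which encodes a neuronal RNA-binding splicing factor, is listed on chromosome 16 in the RefSeq table of GRCm38.p6, and the place of the stretch relative to it in mm9 was not determined here.

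**Figure D5:**
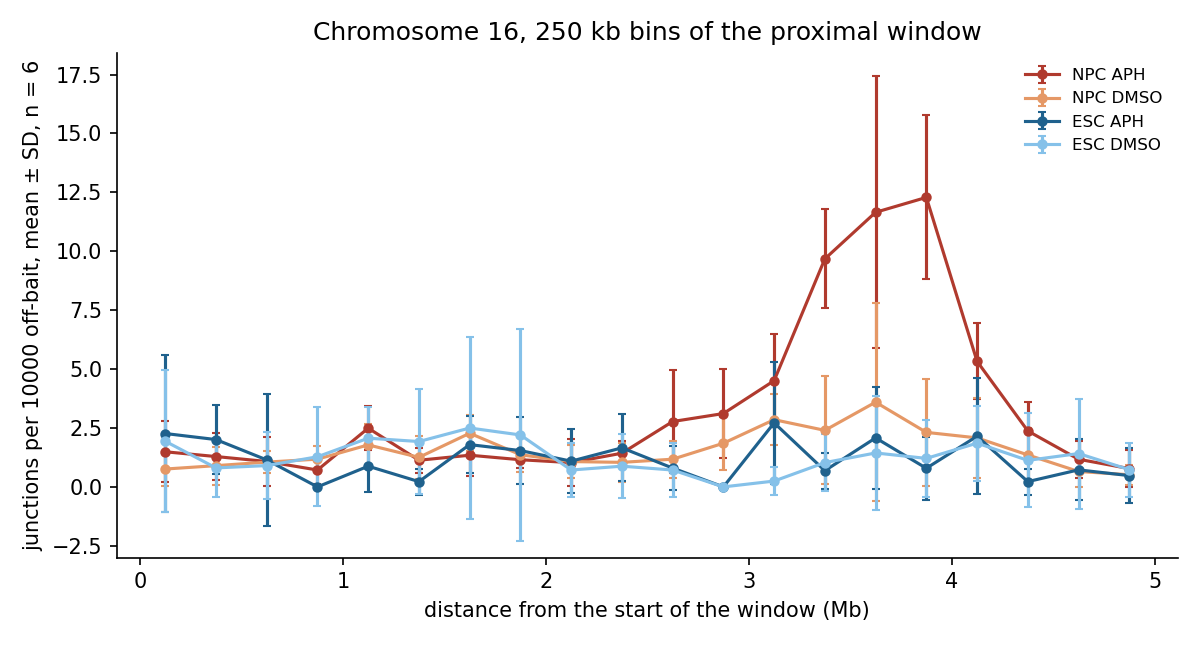
Junctions per 10000 autosomal junctions off the bait chromosome (vertical axis, mean and SD of 6 pools) in the 20 bins of chromosome 16, by distance from the start of the window (horizontal axis, Mb), 1 line for each of the 4 conditions. The bins from 3.25 to 4 Mb from the start average 9.68 to 12.3 in NPC with APH and 2.31 to 3.60 in NPC with DMSO.

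Bins were also tested singly with edgeR's quasi-likelihood test and Benjamini-Hochberg adjustment over all bins tested, with line and bait as a block. Only 8 of the 380 proximal bins, and 168 of all bins, passed the filter on low counts, so most proximal bins were too sparse for a test at this depth. The filter asks for 6 pools at the minimum. In NPC, APH was called above DMSO in 3 of the 8 and below it in 0, where 26.8% of all bins tested were called higher and 0% lower. All 3 were on chromosome 16. They passed the filter through their 6 NPC pools with APH, with 1 other pool at the minimum for 2 of them and 3 for that from 6500001, so the count of calls is given as a description and is no support for a difference. The bin from 6750001 had 12.3 ± 3.48 junctions per 10000 with APH and 2.31 ± 2.26 with DMSO, a log2 fold change of 2.56 ± 0.54 (SE; adjusted p = 7.1e-05, edgeR), that from 6250001 had 9.68 ± 2.10 and 2.40 ± 2.29, a log2 fold change of 2.14 ± 0.55 (SE; adjusted p = 0.00113, edgeR), and that from 6500001 had 11.7 ± 5.77 and 3.60 ± 4.20, a log2 fold change of 1.97 ± 0.53 (SE; adjusted p = 0.0015, edgeR).

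In ESC no proximal bin was called between APH and DMSO, where 5.95% of all bins tested were called higher and 0.595% lower. The smallest unadjusted p among the 8 bins was 0.12, so none was under 0.05, and DESeq2 also called 0. For the difference of the APH effects, NPC over ESC, 0 of the 168 bins were called (0%) by edgeR, and 2 proximal bins had an unadjusted p under 0.05, both on chromosome 16 (DESeq2 also called 0), of which that from 6750001 had a log2 difference of 3.28 (SE 1.41, edgeR adjusted p = 0.264).

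Under APH, the same 3 bins of chromosome 16, which had passed through the NPC pools with APH, were called higher in NPC than in ESC and no proximal bin was called lower, where 27.4% of all bins were called higher and 20.8% lower. This count too is a description. The log2 fold changes were 4.07 (SE 0.78, edgeR adjusted p = 4.6e-06) for the bin from 6750001, 3.64 (SE 0.79, edgeR adjusted p = 5.7e-05) for that from 6250001 and 2.48 (SE 0.65, edgeR adjusted p = 0.000775) for that from 6500001. These bins held 278, 213 and 256 junctions over the 6 NPC pools and 3, 3 and 9 over the 6 ESC pools.

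Under DMSO 0 proximal bins were called higher in NPC and 1 was called lower, where 2.98% of all bins were called higher and 6.55% lower. It was the second bin of chromosome 17, from 3250001, with 2.39 ± 1.09 per 10000 in NPC and 9.40 ± 5.90 in ESC, a log2 fold change of -1.89 ± 0.62 (SE; adjusted p = 0.0325, edgeR). It passed the filter mainly through ESC, with 8 of its 9 pools at the minimum, 5 of them with DMSO, so the call is no support for a difference either. Prey reads that are 80% or more a single base made up 9 of 37 of its junctions in NPC with DMSO and 23 of 27 in ESC with DMSO, and 7 of 78 in NPC with APH and 23 of 26 in ESC with APH. The other junctions under DMSO numbered 28 in NPC and 4 in ESC, or 1.98 and 1.16 per 10000 over the summed pools, so without single-base prey the rate was not lower in NPC. Without line and bait as a block this bin was not called. Where edgeR called 0 proximal bins in a direction in NPC between treatments, or between NPC and ESC under either treatment, 0 bins had an unadjusted p under 0.05 in that direction and DESeq2 also called 0.

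At a finer scale, 11 stretches of 1 kb held 20 or more junctions each, 485 or 3.05% of the proximal junctions. The kb from 5860001 of chromosome 3 held 65 in 16 pools, 35 with bait 12, 22 with bait 15 and 8 with bait 7, and its most used position is the sequence above that ends in GGCGGGGGGG. Whether these reads could also come from another place in the genome was not tested. The kb from 3372001 of chromosome 13 held 59 in 15 pools. On chromosome 18 the kb from 3005001 held 93 in 20 pools, of which 58 were with bait 12, and the neighbouring kb on either side held 24 and 27.

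Some positions were reported with a single bait. The kb from 5697001 of chromosome 4 held 55 junctions, all with bait 7 and all in the 4 NPC pools of that bait, 31 with APH and 24 with DMSO. Their strands were balanced, 27 plus and 28 minus, and the most used minus and plus positions, 5697256 and 5697268, lie next to each other, as the sequences of its left and right side show. The 4 ESC pools of bait 7 held 0 there, which allows up to 3 counts over all 4 together, or 1.62 per 10000 of their 18527 autosomal junctions off the bait chromosome, against 68135 in the 4 NPC pools. The kb from 3480001 of chromosome 12 held 21 junctions, all with bait 15, in 5 pools.

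Prey of a single base formed a separate class. In 3 of the 11 stretches nearly all reads were such, 62 of 63 from 3379001 of chromosome 17, 28 of 28 from 4414001 of chromosome 13 and 28 of 28 from 6605001 of chromosome 10, as in the printed run of 44 C. Over the whole window they numbered 204, of which 161 were G as read, and made up 0.371 ± 0.331% of proximal junctions in NPC with APH, 0.423 ± 0.479% in NPC with DMSO, 4.52 ± 5.08% in ESC with APH and 6.40 ± 4.21% in ESC with DMSO. In the rest of the autosomes they made up 0.252, 0.327, 4.90 and 4.13% in the same conditions. Their share was thus higher in ESC on both sides of the boundary, and their part in the comparisons of NPC with ESC was measured by leaving them out: NPC minus ESC was then 0.094 under APH and -0.063 under DMSO, and chromosome 17 became lower than its rest at -0.25 (permutation adjusted p = 0.0239).

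The form of the joints gave no difference between the window and the rest that passed the threshold. Microhomology of at least 1 base was found at 74.3 ± 0.758% of proximal and 75.8 ± 0.707% of other junctions in NPC with APH, at 76.4 ± 3.02% and 76.1 ± 3.39% in NPC with DMSO, at 61.7 ± 6.78% and 62.9 ± 5.50% in ESC with APH and at 61.6 ± 8.15% and 65.3 ± 5.59% in ESC with DMSO. Inserted bases were found at 17.9% and 17.3% in NPC with APH, 16.7% and 16.9% in NPC with DMSO, 30.6% and 29.9% in ESC with APH and 31.5% and 27.6% in ESC with DMSO. Of 16 tests of microhomology, blunt joints, insertions and strand, none passed after adjustment. The smallest adjusted p was 0.167, for microhomology in ESC with DMSO (proximal minus rest -3.71 percentage points, lower in 6 of 6 pools, exact permutation p = 0.03125), for insertions there (3.91 points, higher in 6 of 6) and for blunt joints in NPC with APH (0.977 points, higher in 6 of 6).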

How the data were processed

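Junctions were read from 24 tables of junction counts as deposited by the authors, 1 row per junction with its position, strand and read, and the counts per bin are not normalized by the authors. Reads were aligned with Bowtie2 to mm9, per the submitters' processing notes. Versions were not found in these sources. The tables carry flags for mapping quality, break site, sequential junctions, repeats and duplicates, which were 0 in all rows except 33961 of the 156913 of the NPC pool of line 2 and bait 15 with APH, where they are blank or displaced. These rows were kept, and leaving them out changed no call on a ratio. Of 2037403 rows, 18609 repeated read names were removed, which left 2018794 junctions, 453873 of them off the bait chromosome. All repeats lay in a pair of APH pools. The NPC pool of line 2 and bait 12 went from 68138 rows to 57231 junctions. The ESC pool of line 1 and bait 7 went from 69064 to 61362. Chromosomes were taken to end with the last bin that holds a junction, and each autosome had the same weight in the density of the rest. The members and lists were chosen with earlier results of these data known.

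Log2 ratios per pool (pseudocount 0.5 on counts for single autosomes) were compared with two-sided sign-flip permutation tests, exact for up to 16 values and with 100000 resamples for 24, with Benjamini-Hochberg adjustment within each family of tests and a threshold of 0.05. Bins were tested with edgeR 4.0.16 (filterByExpr minimum count 5) in R 4.3.3. TMM factors came from 5 Mb windows, since 250 kb bins are too sparse for them, a choice made after simulated data gave false calls otherwise. DESeq2 1.42.0 was an alternative. Python 3.11.15, numpy 2.4.6, pandas 2.3.3 and scipy 1.17.1 were used, and scripts were tested on simulated data. Named bins are the 10 with the highest mean junctions per 10000 and all called by edgeR. Narrow 1 kb sites, the chromosome 16 stretch and single-base prey were singled out after values were seen.

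Pools were paired by line and bait, which are given in the labels and mean a shared cell line. Over 401 windows of 5 Mb, deviations from group means correlated by 0.120 to 0.491 between NPC APH and DMSO pools, by 0.133 to 0.173 between ESC APH and DMSO pools, and by -0.013 to 0.236 (APH) and 0.028 to 0.182 (DMSO) between NPC and ESC.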

Additional observations from a re-analysis of the deposited data

Results flagged for a closer look

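Some values stood far from the others of their group by a gap test that chance passes in about 1 in 20 groups. The NPC pool of line 2 and bait 15 with DMSO was high in 3 neighbouring bins of chromosome 16, at 6.95, 11.9 and 6.76 junctions per 10000 for those from 6250001, 6500001 and 6750001. The NPC pool of line 2 and bait 12 with APH held 9.06 per 10000 in the first bin of chromosome 17. The NPC minus ESC difference under APH was 0.25 (log2) for line 2 and bait 12, and the ratio of the first to the second 2.5 Mb was 0.18 (log2) in the NPC APH pool of line 1 and bait 12, the highest of its 6.

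The proximal ratios of 5 autosomes differed between NPC and ESC by a test of the difference itself, by 0.49 on chromosome 2, -0.90 on chromosome 7, -1.05 on chromosome 14, 1.00 on chromosome 16 and -0.54 on chromosome 18 (log2). That test counts the APH and DMSO pairs of one line and bait as separate, though they are not independent. All 5 also passed with single-base prey left out and when repeats of a position and strand were counted once. Without its 5 dense bins, chromosome 16 had a difference of 0.44, with NPC higher in 9 of 12 pairs (permutation p = 0.0737).

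Junctions outside the comparisons were also present at the proximal ends. Chromosome X held 271 in the same window, 0.674 of the density of its rest. On their own bait chromosome, pools of bait 7 held 331, of bait 12 3173 and of bait 15 961, where the bait break of chromosome 12 is the nearest to the window.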

How the results depend on the processing

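Some log2 differences changed sign with the settings, and the cause was not tested. APH minus DMSO in ESC was -0.035 with each position and strand once, -0.0060 without narrow bins, -0.0037 with a 2.5 Mb window and -0.0047 with a 10 Mb window. With 2.5 Mb, proximal over rest was 0.019 in ESC APH and 0.023 in ESC DMSO, NPC minus ESC under APH -0.073, and chromosomes 7 and 17 were 0.034 and 0.41 (chromosome 17 now past the threshold, permutation adjusted p = 0.0071). With 10 Mb, line 2 minus line 1 in NPC was 0.00010, and chromosomes 11, 12, 17 and 18 were -0.32, -0.054, 0.029 and -0.0020 (chromosome 11 past the threshold in the other direction, permutation adjusted p = 0.0007). Chromosome 18 was -0.13 without narrow bins. With each position once, blunt joints in ESC DMSO were 0.185 and insertions in ESC APH -0.608 points. With APH and DMSO pools averaged, bait 12 minus 7 was 0.32 and 12 minus 15 was 0.28, no longer past the threshold, because 4 values cannot be. Leaving out the chromosome 16 stretch was chosen after seeing the data, as was that average. It gave -0.039 for NPC minus ESC under APH and 0.29 for the first over the second 2.5 Mb in NPC APH. For the lines it gave -0.15 in ESC and -0.088 in NPC, now past the threshold with the treatments counted as separate pairs. In ESC the exact p was already the smallest that 6 pairs allow, and its adjusted p fell through the result in NPC. Leaving out the first bin of chromosome 11, also chosen after seeing the data, gave 0.24 for APH in NPC and 0.21 for its difference from ESC. For NPC minus ESC it gave 0.099 under APH and -0.11 under DMSO. All these values without the chromosome 11 bin were now past the threshold (exact permutation adjusted p = 0.0391 each). NPC minus ESC under DMSO now had 0 of 6 pairs positive. The other values had the smallest p that 6 pairs allow before as well. Their adjusted p fell from 0.0521 through the DMSO comparison, not through a smaller p of their own. Bins lower in NPC than ESC numbered 2 under APH and 0 under DMSO with bins joined in pairs and with no filter, and 0 under DMSO without the block. Without the replicate block, APH minus DMSO in NPC had exact permutation p = 0.0541 (adjusted p = 0.216), and the block changed no call on a ratio.

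Leaving out each line, bait, line and bait, or autosome gave 0.095 to 0.27 for APH in NPC, -0.013 to 0.093 in ESC, 0.064 to 0.24 for their difference, -0.080 to 0.15 for NPC minus ESC under APH and -0.15 to -0.039 under DMSO, -0.22 to 0.035 for proximal over rest in NPC APH, 0.26 to 0.38 for bait 12 minus 7, 0.22 to 0.34 for 12 minus 15, -0.00097 to 0.072 for 15 minus 7, and -0.19 to -0.12 and -0.082 to -0.022 for the lines in ESC and NPC. Without line 1 or 2, or a pool of them, the baits no longer passed, because 4 pairs cannot. Chromosomes 7, 10, 12, 17 and 18 ranged over -0.49 to 0.070, -0.27 to 0.0055, -0.026 to 0.34, -0.13 to 0.15 and -0.14 to 0.23. Called bins ranged over 0 to 2 lower in NPC under APH, 0 to 1 higher and 0 to 1 lower under DMSO. Of ESC, few junctions per bin limit what could be detected.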
